A study of Bos taurus with 12 samples.

Results

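The genes GPX3, SOD2 and MT2A were followed in rumen papillae of dairy cows through a change from forage to grain. Each gene was represented by every probe set whose single gene symbol in the array's annotation was that gene, which gave 1 probe set per gene. They are 3 of the 9155 genes named by the array's 24016 probe sets other than controls. The genes were chosen by their differences between weeks on these same 12 arrays, so those differences are given as descriptions and carry no test.

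Papillae are projections of the rumen wall that take up fermentation products. They were taken in the ventral sac from 4 cows of the Holstein dairy breed, each sampled 3 times. At week 0 the cows were on a high forage diet, which the labels call the control, and weeks 1 and 3 were counted from the start of a grain challenge. Each week had 4 arrays, 12 in all, and the replicates were separate animals that returned at every week. Every cow changed diet, so diet and elapsed time cannot be told apart.

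GPX3 encodes a secreted glutathione peroxidase, a selenoprotein that uses glutathione to reduce hydrogen peroxide and organic peroxides outside cells. SOD2 is the manganese superoxide dismutase of mitochondria, which turns superoxide into hydrogen peroxide and oxygen, and it is well known as a target of the inflammatory factor NF-kB. MT2A is a metallothionein, a small cysteine-rich protein that binds zinc and copper, and its gene responds to metals through the factor MTF1 and to glucocorticoids. The rumen wall is lined by a stratified squamous epithelium, and grain is fermented there faster than forage, which raises acids and lowers the pH.

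Values are the authors' log2 values, on which each probe set's median array is at 0. They give differences between arrays, so the level of one gene cannot be set against that of another, and the labelled tissue cannot be checked by the presence of its epithelial markers. Papillae hold several cell types, and in such bulk samples fewer cells of a type and less RNA per cell cannot be told apart. The 12 array medians lay between -0.05 and 0.05. Hybridization controls (18 probe sets for spiked RNA) had means of 0.48 to 0.72 on 3 arrays, namely both early weeks of cow 1 and the forage week of cow 2. On the remaining arrays these means were -0.32 to 0.05.

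The secreted peroxidase GPX3 was lower in the first week of grain than at either other time in every cow. On forage it stood at 0.70, 0.54, 0.27 and -0.34 in cows 1 to 4. In week 1 the same cows gave -0.28, -1.04, -1.45 and -1.80. In week 3 they gave 0.76, 1.06, 0.36 and -0.27. Cow 1 was the highest of week 1 and cow 4 the lowest of each week, and the single overlap between weeks 0 and 1 lay between the forage value of cow 4 and the week 1 value of cow 1. Weeks 1 and 3 did not overlap, though the week 1 value of cow 1 and the week 3 value of cow 4 nearly met.

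The weekly means of GPX3 were 0.29 ± 0.46, -1.14 ± 0.65 and 0.48 ± 0.57 (SD, n = 4 cows) at weeks 0, 1 and 3. Week 1 was below week 0 by a log2 difference of -1.43 ± 0.37 (SE of the model over 12 arrays), which is 2.70-fold, with -0.97, -1.58, -1.72 and -1.46 in the 4 cows. Week 3 was above week 1 by 1.62 ± 0.37, or 3.07-fold, with 1.03, 2.09, 1.82 and 1.53. Weeks 0 and 3 were 0.19 ± 0.37 apart, less than the SD of either week. Week 3 was higher in all 4 cows by 0.06 to 0.52, a pattern that 36.3% of all probe sets shared, and the mean turned to -0.02 without week 0 of cow 4 and to -0.01 without week 3 of cow 2. Leaving out the 3 arrays named above for their hybridization controls gave 0.51, while the differences of week 1 from week 0 and of week 3 from week 1 were -1.39 and 1.91. With the cow as a block the SE was 0.16.

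**Figure D1:**
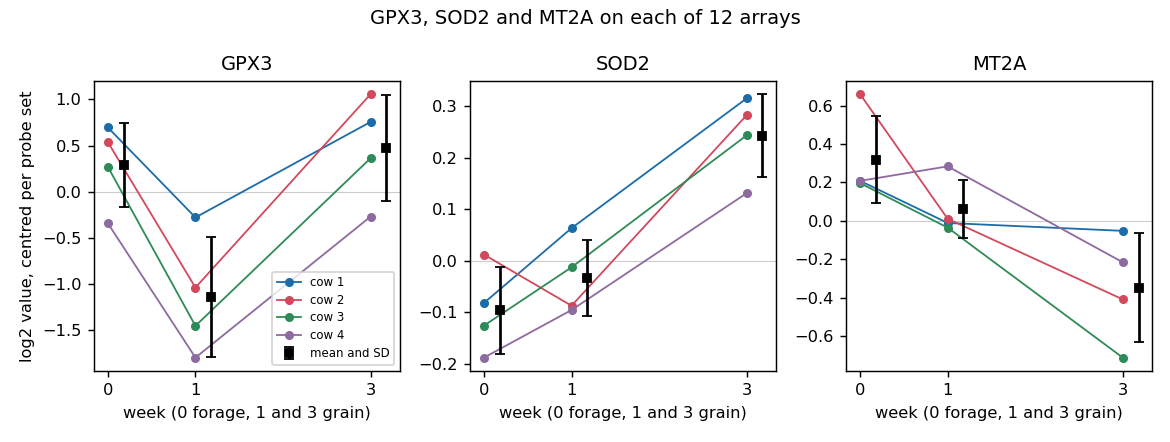
Log2 values of GPX3, SOD2 and MT2A (vertical axes, a separate scale per gene) by week (horizontal axis), with a coloured line per cow and black squares for the mean and SD of the 4 cows. GPX3 is lowest at week 1 in every cow with a mean of -1.14, SOD2 is highest at week 3 in every cow with a mean of 0.24, and MT2A is lowest at week 3 in every cow with a mean of -0.35.

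The mitochondrial dismutase SOD2 was higher at week 3 of grain than at week 0 or week 1, in all 4 cows and within a narrow range. On forage it stood at -0.08, 0.01, -0.13 and -0.19 in cows 1 to 4. In week 1 it stood at 0.06, -0.09, -0.01 and -0.10. In week 3 it stood at 0.32, 0.28, 0.24 and 0.13. The lowest week 3 value, in cow 4, lay above every value of the other two weeks, whereas the values of weeks 0 and 1 ran into each other.

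The weekly means of SOD2 were -0.10 ± 0.08, -0.03 ± 0.07 and 0.24 ± 0.08 (SD, n = 4 cows). Week 3 was above week 0 by a log2 difference of 0.34 ± 0.06 (SE), or 1.27-fold, with 0.40, 0.27, 0.37 and 0.32 in the 4 cows. It was above week 1 by 0.28 ± 0.06, or 1.21-fold, with 0.25, 0.37, 0.26 and 0.23. Cow 2, with the smallest difference from forage, thus had the largest from week 1, since it alone was lower at week 1 than at week 0. Week 1 differed from week 0 by 0.06 ± 0.06, with 3 cows higher and 1 lower, and this difference was 0.014 to 0.117 over the alternatives. Leaving out the same 3 arrays put week 3 above week 0 by 0.40.

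The metallothionein gene MT2A was lower at week 3 of grain than on forage in all 4 cows, with week 1 between them in cows 1, 2 and 3. On forage it stood at 0.21, 0.66, 0.20 and 0.21 in cows 1 to 4. In week 1 it stood at -0.01, 0.01, -0.04 and 0.28. In week 3 it stood at -0.05, -0.41, -0.71 and -0.22. Cow 2 was far above the other 3 cows on forage, and cow 4 far above the others in week 1. All week 3 values lay below all values of weeks 0 and 1, in cow 1 by a narrow margin.

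The weekly means of MT2A were 0.32 ± 0.23, 0.06 ± 0.15 and -0.35 ± 0.28 (SD, n = 4 cows). Week 3 was below week 0 by a log2 difference of -0.67 ± 0.15 (SE), or 1.59-fold, with -0.26, -1.07, -0.91 and -0.42 in the 4 cows. It was below week 1 by -0.41 ± 0.15, or 1.33-fold, with -0.04, -0.42, -0.68 and -0.50, so that cow 1 barely differed. Week 1 was at -0.26 ± 0.15 against week 0, lower in 3 cows and higher by 0.08 in cow 4, and this difference was -0.13 without cow 2. Without week 0 of cow 2 alone, one of the arrays of high hybridization controls, the difference of week 3 from week 0 was -0.55 and that of week 1 from week 0 was -0.14. Without all 3 such arrays they were -0.55 and -0.12.

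**Figure D2:**
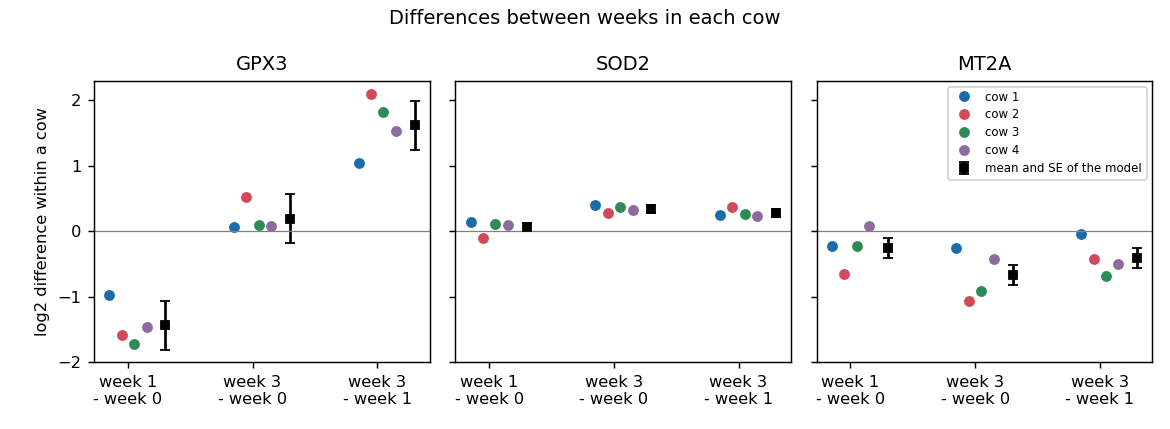
Log2 differences between weeks within each cow (coloured points, shared vertical axis) and their mean with the SE of the model (black squares) for the 3 genes. GPX3 has by far the widest differences, from -1.72 to 2.09, SOD2 at week 3 keeps between 0.23 and 0.40, and MT2A at week 3 against week 0 runs from -1.07 to -0.26.

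These differences stand in an array set in which few probe sets pass an adjusted test between weeks. A limma model with a mean per week called 0 of 24016 probe sets (0%) at an adjusted p under 0.05 in each of the 3 comparisons. At an unadjusted p under 0.05 it held 1237 probe sets (5.15%) for week 1 against week 0, 933 (3.88%) for week 3 against week 0 and 1172 (4.88%) for week 3 against week 1. A value higher in all 4 cows was found in 6.91%, 36.3% and 5.12% of probe sets in these comparisons, and a value lower in all 4 cows in 3.39%, 4.63% and 4.59%. With the cow as a block 2 probe sets (0.00833%) were called for week 1 against week 0, and 0 in either other comparison. The share of probe sets whose 4 later arrays all lay above the 4 earlier ones was 2.72% for week 3 against week 0, as for SOD2, and 1.07% for week 3 against week 1, as for SOD2 and GPX3. The share lying wholly below was 0.754% for week 3 against week 0 and 1.38% for week 3 against week 1, as for MT2A in both.

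Week 1 was the lowest week in all 4 cows, as for GPX3, in 1.47% of probe sets. Week 3 was the highest week in all 4 cows in 1.9% of probe sets, which included GPX3 and SOD2, and the lowest in 1.04%, which included MT2A. The median size of a difference over all probe sets was 0.06, 0.04 and 0.04 in the 3 comparisons. A difference larger in size than that of GPX3 was found in 0.075% of probe sets for week 1 against week 0 and in 0.125% for week 3 against week 1. For week 3 against week 0 the share with a larger difference was 4.98% for SOD2 and 0.941% for MT2A. The genes were chosen for such differences, and nothing about them is read from these shares.

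**Figure D3:**
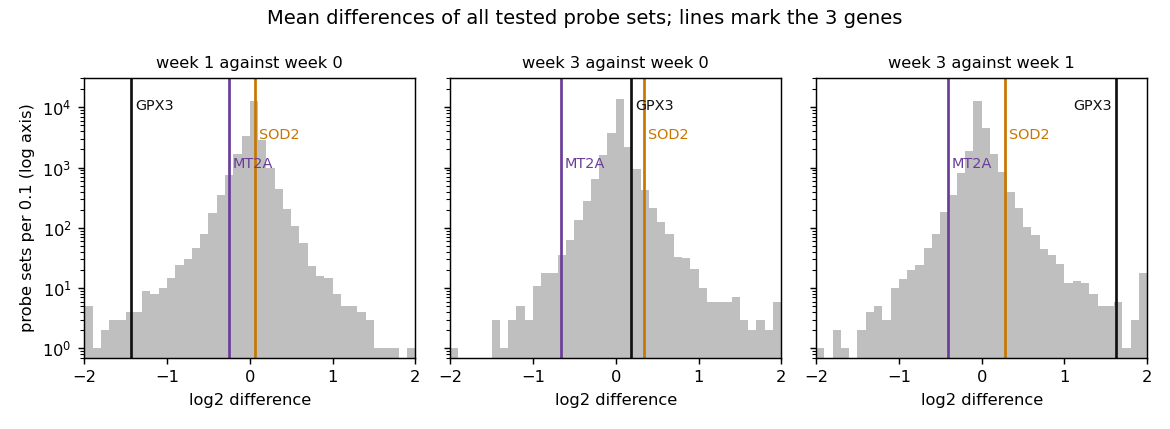
Number of probe sets (vertical log axis) per interval of 0.1 in the mean log2 difference between weeks (horizontal axis), with differences beyond 2 in size counted in the end intervals and a line for each of the 3 genes. GPX3 lies at -1.43 and 1.62 in the tails of the comparisons with week 1 and at 0.19 for week 3 against week 0, while SOD2 and MT2A lie at 0.34 and -0.67 for week 3 against week 0.

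The 3 genes differed in how much they varied between cows. GPX3 averaged 0.39, 0.19, -0.27 and -0.80 over the 3 weeks of cows 1 to 4. The cows differed by the limma F test in a fit with week and cow (adjusted p = 0.0483 over all probe sets, where 1.79% were called). This call was lost in 18 of 21 alternatives, with adjusted p-values from 0.00814 without the 40% of probe sets of lowest SD to 0.434 without cow 4. It is also not independent of how the genes were chosen. The test divides by the spread left after week and cow, and genes chosen by differences between weeks can have little of it. For GPX3 3.92% of the variance was left, against a median of 57.6% over all probe sets. Its share between cows, 27.6%, was near the median of 27.0%. SOD2 averaged 0.10, 0.07, 0.04 and -0.05 in the same cows, in the order of GPX3, and did not pass (adjusted p = 0.533). MT2A averaged 0.05, 0.09, -0.18 and 0.09 and did not pass either (adjusted p = 0.895).

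Of the variance of GPX3 over the 12 arrays 27.6% lay between cows, 68.4% between weeks and 3.92% in neither. For SOD2 the shares were 11.9%, 82.0% and 6.10%, and for MT2A 11.4%, 66.0% and 22.6%. The medians over all probe sets were 27.0% between cows, 12.4% between weeks and 57.6% in neither. The shares between weeks follow from how the genes were chosen, and nothing is read from them. The SD over the arrays was 0.91 for GPX3, 0.17 for SOD2 and 0.35 for MT2A, against a median of 0.12.

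The 3 genes did not follow one course. Over the 12 arrays, which share 4 cows and 3 weeks, Pearson's r was 0.52 between GPX3 and SOD2, -0.18 between GPX3 and MT2A and -0.67 between SOD2 and MT2A. Spearman's rho was 0.62, -0.29 and -0.71 for the same pairs. With each cow's mean taken away, r was 0.43, -0.24 and -0.75. These correlations describe arrays that are not independent of each other.

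The other measured glutathione peroxidases differed far less between weeks than GPX3. Of 7 listed relatives, 4 were measured, and none of the 4 passed in any comparison. For week 1 against week 0 GPX1, the main peroxidase of the cytosol, was at -0.18 ± 0.14 (SE, n = 4 cows) and lower in all 4 cows, and for week 3 against week 1 it was at 0.21 ± 0.14 and higher in all 4. For both differences 1 of its 2 probe sets had the opposite sign. GPX2, the epithelial form of the gut, was at -0.12 ± 0.20 at week 1 against week 0 and 0.04 ± 0.20 at week 3 against week 1. GPX4, which reduces lipid peroxides in membranes, was at 0.20 ± 0.15 and -0.01 ± 0.15, and GPX7, of the endoplasmic reticulum, at 0.03 ± 0.04 and -0.01 ± 0.04. The difference between GPX3 and its relatives was not tested.

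Among the dismutases and catalase all 4 listed genes were measured, and none passed in any comparison. For week 3 against week 0 SOD1, the copper and zinc enzyme of the cytosol, was at -0.02 ± 0.20 (SE, n = 4 cows), and SOD3, the secreted form, at 0.02 ± 0.03. CCS, the chaperone that loads copper into SOD1, was at -0.34 ± 0.24, lower in 3 of 4 cows. CAT, the catalase that breaks down hydrogen peroxide, was at 0.10 ± 0.11. Against week 1 these 4 genes were at -0.16, -0.01, -0.08 and 0.00, beside 0.28 for SOD2.

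Of the other metallothioneins MT1A and MT3 were measured, with MTF1, the zinc-sensing factor that drives metallothionein genes. MT1A was at 0.02 ± 0.03 (SE, n = 4 cows), MT3 at 0.05 ± 0.05 and MTF1 at -0.03 ± 0.15 for week 3 against week 0, beside -0.67 for MT2A. None of the 3 passed in any comparison. MT1A ranged from -0.07 to 0.06 and MT3 from -0.13 to 0.18 over all 12 arrays. These centred values do not show whether the signal of either lay above background. Metallothionein genes are alike in sequence, and whether the MT2A probe set also took up RNA of a close relative was not tested.

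**Figure D4:**
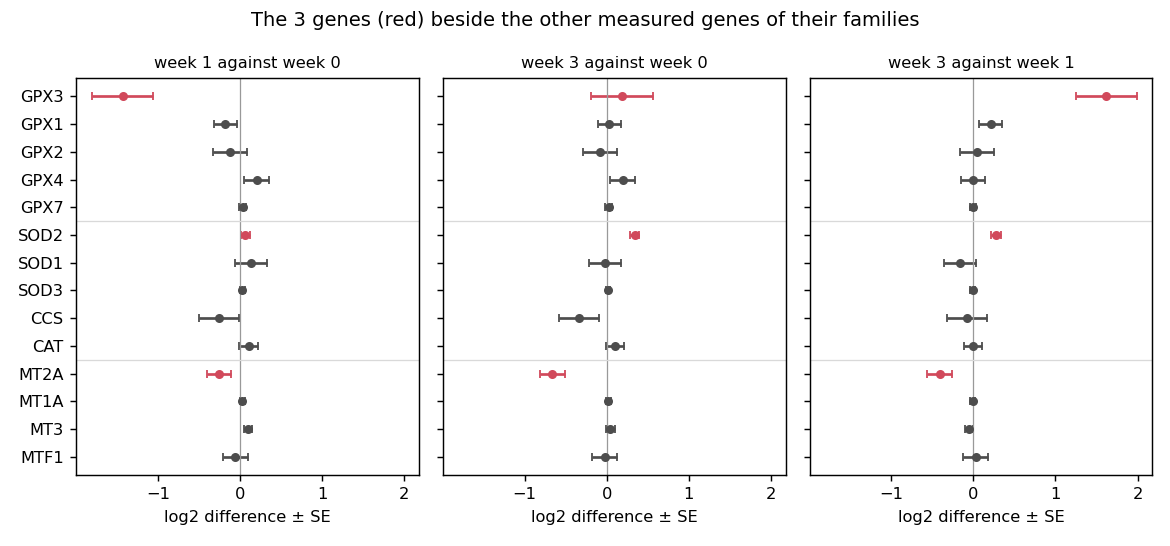
Log2 differences between weeks (horizontal axes, one scale) with the SE of the model for GPX3, SOD2 and MT2A (red) and the other measured genes of their families (grey). The relatives lie between -0.34 and 0.21 in all 3 comparisons, and GPX3 lies at -1.43 and 1.62 in the comparisons with week 1.

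Around these families 149 of 209 listed genes of antioxidant defence, metal handling and their regulators were measured. None was called in any comparison by limma, with or without the cow as a block, and 11, 17 and 13 had an unadjusted p under 0.05 for week 1 against week 0, week 3 against week 0 and week 3 against week 1. Of all 9155 named genes, also taken at their probe set of largest SD, 605, 460 and 626 did. The median differences of the listed genes were 0.03, 0.02 and -0.01, next to 0.02, 0.02 and -0.01 over all named genes. Of all named genes 63.3%, 64.5% and 40.8% were higher in these comparisons, the background for the counts of higher genes in each list, and of the 149 listed genes 59.7%, 65.1% and 45%. The values that follow are of genes that did not pass.

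Like GPX3, the other selenoproteins contain selenocysteine, and 19 of 29 genes for them or for its insertion were measured. Of these 13 were higher and 6 lower at week 1 against week 0, with a median of 0.02. SELENOT, a selenoprotein of the endoplasmic reticulum, was then at 0.19 ± 0.07 (SE, n = 4 cows), and SEPHS2, which makes the selenium donor, at 0.24 ± 0.10, each higher in all 4 cows, while GPX3 was at -1.43. SEPHS2 was at -0.33 ± 0.10 for week 3 against week 1 and lower in all 4 cows. TXNRD1, the cytosolic thioredoxin reductase, was at 0.35 ± 0.12. SELENOP, the selenium carrier of plasma, was at 0.31 ± 0.22 in that comparison and at 0.47 ± 0.22 at week 3 against week 0.

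Peroxiredoxins and thioredoxins, which also remove peroxides, had 12 of 14 listed genes measured. At week 1 against week 0, 3 were higher and 9 lower, with a median of -0.04. PRDX3, the mitochondrial peroxiredoxin, was at 0.40 ± 0.11 (SE, n = 4 cows), higher in all 4 cows, when SOD2 of the same compartment was at 0.06. PRDX3 was at -0.27 ± 0.11 and SOD2 at 0.28 for week 3 against week 1. SRXN1, which repairs peroxiredoxins, was at -0.35 ± 0.17 at week 1 against week 0, and TXN, the cytosolic thioredoxin, at -0.30 ± 0.12 at week 3 against week 0.

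Glutathione, the cofactor of GPX3, is made by a short pathway of which, with the conjugating transferases, 17 of 24 listed genes were measured. At week 1 against week 0, 10 were higher and 7 lower, with a median of 0.02. GCLC, the catalytic subunit of the rate-limiting enzyme, was at 0.61 ± 0.21 (SE, n = 4 cows) and GGT1, which splits extracellular glutathione, at 0.85 ± 0.30, while OPLAH, which recycles oxoproline to glutamate, was at -0.63 ± 0.32 and lower in all 4 cows. GGT1 was at 0.96 ± 0.30 at week 3 against week 0, higher in all 4 cows, and GCLM, the modifier subunit of the rate-limiting enzyme, at -0.32 ± 0.19, lower in all 4. In the pathway of NRF2, the main regulator of antioxidant genes, 4 of 12 measured genes were higher and 8 lower at week 3 against week 0, with a median of -0.10. HMOX1, the heme oxygenase, was at 1.80 ± 0.48 and higher in all 4 cows, while NQO1, a quinone reductase, was at -0.43 ± 0.19 and TKT, a transketolase, at -0.28 ± 0.12, both lower in all 4.

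Enzymes that produce superoxide or peroxide had 12 of 20 listed genes measured. At week 3 against week 0, when SOD2 was at 0.34, 11 were higher and 1 lower, with a median of 0.09, where 64.5% of all named genes were higher. NCF1 and NCF4, subunits of the phagocyte oxidase, were at 0.15 ± 0.08 and 0.23 ± 0.11 (SE, n = 4 cows). Each was higher in all 4 cows, as were 2573 of all 9155 named genes. At week 3 against week 1 the list had 6 higher and 6 lower, with a median of 0.01. XDH, the xanthine dehydrogenase, was then at 0.77 ± 0.28 and CYBA, a membrane subunit of the oxidase, at 0.88 ± 0.48. Against week 0 they were at 0.23 ± 0.28 and 0.20 ± 0.48, each higher in 2 of 4 cows.

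Genes of the NF-kB pathway and its targets had 24 of 27 measured, beside SOD2 itself. At week 3 against week 0, 21 were higher and 3 lower, with a median of 0.12, and at week 3 against week 1, 20 were higher and 4 lower, with a median of 0.23. Over all named genes the median was 0.02 and -0.01, with 64.5% and 40.8% higher. The chemokine CXCL2 was at 1.64 ± 0.66 (SE, n = 4 cows) against week 0 and 2.02 ± 0.66 against week 1, and the chemokine CXCL8 at 2.72 ± 0.83 against week 1. ICAM1, an adhesion molecule, was at 0.61 ± 0.17 already at week 1 against week 0 and at 0.48 ± 0.17 at week 3. NFKBIZ, an atypical protein of the IkB family, was at 0.39 ± 0.15 at week 3 against week 0. The list's mean per array still overlapped between weeks, from -0.42 to 0.08 at week 0, -0.37 to 0.37 at week 1 and -0.07 to 0.65 at week 3.

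Zinc and copper transport, linked to MT2A through its metals, had 15 of 22 listed genes measured. At week 3 against week 0, 13 were higher and 2 lower, with a median of 0.08, where 64.5% of all named genes were higher and MT2A was at -0.67. SLC30A1, the zinc exporter of the cell surface and like MT2A a known target of MTF1, was at 0.78 ± 0.27 (SE, n = 4 cows), higher in 3 of 4 cows. SLC30A6, a Golgi zinc transporter, was at 0.29 ± 0.12, and SLC31A1, the copper importer, at 0.23 ± 0.10. SLC39A6 was at -0.39 ± 0.24 and, like MT2A, lower in all 4 cows. At week 3 against week 1 the list had 6 higher and 9 lower, with a median of -0.004. SLC30A1 was then at 0.80 ± 0.27, higher in all 4 cows, and SLC39A6 at -0.56 ± 0.24, lower in all 4. For week 3 against week 0, of the glucocorticoid receptor and its targets 7 of 10 were higher and 3 lower, with a median of 0.02. ERRFI1 was at 0.54 ± 0.20 and the receptor NR3C1 at 0.34 ± 0.19. Iron handling had 5 of 9 higher, with ACO1, an iron-responsive aconitase, at 0.26 ± 0.08, and the list of mitochondrial biogenesis and stress had 4 of 8 higher, with NRF1 at -0.15 ± 0.07.

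The gene whose pattern was most like that of GPX3, by Pearson's r over the 12 arrays and among 9154 other named genes, was the complement component C2 with an r of 0.96. It was followed by SERPINB1, an inhibitor of neutrophil proteases, at 0.94, LAP, the lingual antimicrobial peptide, at 0.93, CFB, the complement factor B, at 0.93, and LPO, the secreted lactoperoxidase, at 0.92. The weekly means of C2 were 0.07 ± 0.77, -1.65 ± 1.14 and 0.45 ± 0.67 (SD, n = 4 cows). Those of LPO, which like GPX3 acts on peroxide outside cells, were 0.31 ± 0.50, -2.87 ± 1.94 and 0.56 ± 0.77. With each cow's mean taken away, C2, MAPKAP1, CFB, PDK4 and SERPINB1 came first, at 0.99 to 0.95.

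For SOD2 the most alike was CXCL5, a neutrophil-attracting chemokine, at 0.93, ahead of HOPX at 0.86, VKORC1 at 0.86, SPATS2L at 0.84 and SAT1, which acetylates polyamines, at 0.84. The weekly means of CXCL5 were -0.33 ± 0.64, -0.28 ± 0.46 and 1.43 ± 0.82 (SD, n = 4 cows), so its difference of week 3 from week 0, 1.77, was far larger than the 0.34 of SOD2. With each cow's mean taken away, SPATS2L, CXCL5, SUOX, the mitochondrial sulfite oxidase, CTSC and UBE2V1 came first, at 0.95 to 0.91. For MT2A these were HSD17B2, a steroid dehydrogenase, at 0.90, the tubulin TUBA4A at 0.88, THYN1 at 0.86, VTI1A at 0.83 and RRP15 at 0.82, and without the cow means YWHAG, TPPP, FHL1, CRIP2 and ID1 at 0.96 to 0.92. Arrays of one cow are not independent, and the names were the highest of 9154 genes, so these r values are descriptions without a test.

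**Figure D5:**
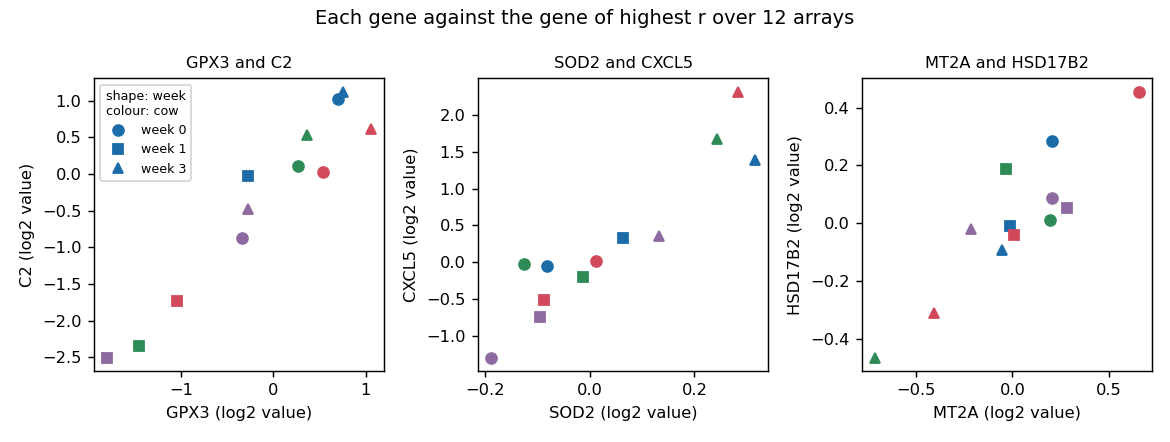
Log2 values of GPX3, SOD2 and MT2A (horizontal axes) against those of C2, CXCL5 and HSD17B2 (vertical axes) on the 12 arrays, with a shape per week and a colour per cow. In the first panel 3 of the 4 arrays of week 1 lie apart at low values of both genes and cow 1 lies with the other weeks, and in the second panel cows 1 to 3 at week 3 lie at the top right.

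Markers of other cell types are given beside these genes. Of markers of monocytes, macrophages and dendritic cells 7 of 11 were measured. By mean difference 5 of the 7 were lower in week 1 than in week 0, with a median of -0.33. Only 1 of the 7 was lower in all 4 cows, as GPX3 was, and in cow 4 the mean of these markers rose from -0.53 to -0.40. In week 3 against week 1, 6 of the 7 had higher values, with a median of 0.34, and 3 were higher in all 4 cows, as GPX3 and SOD2 were. Their mean per array ran from -0.53 to 0.68 at week 0, -0.40 to 0.12 at week 1 and -0.21 to 0.56 at week 3. Of the neutrophil markers 5 of 7 were measured, with 3 lower and 2 higher at week 1 against week 0 and a median of -0.07. Their mean per array was lower at week 1 than at week 0 in all 4 cows, but of the 5 markers only 1 was itself lower in all 4. The mean ran from -0.13 to 0.17 at week 0, -0.33 to 0.01 at week 1 and -0.04 to 0.07 at week 3. S100A9 alone was at -0.86 ± 0.27 (SE) at week 1 against week 0 and weighs heavily in this mean. All 9 fibroblast markers had higher values in week 3 than in week 1, by a median of 0.29, with a mean per array of 0.11 to 0.29 at week 3 against -0.33 to 0.18 at week 1 and -0.43 to 0.09 at week 0. Markers of basal and spinous epithelium, 7 of 12 measured, had a median of -0.28 at week 1 and -0.15 at week 3 against week 0. Unlike GPX3, markers of T and NK cells and of adipocytes had higher means per array at week 1 than at week 0 in all 4 cows. Of single markers, only 2 of 8 for T and NK cells and 1 of 4 for adipocytes were higher in all 4 cows. Of the 8, 1 was lower in all 4 cows. By mean difference 6 of the 8 T and NK cell markers were higher, with a median of 0.04, and all 4 of adipocytes, with a median of 0.03. Of all named genes 63.3% were higher. For vessels, smooth muscle, B and plasma cells, mast cells and red blood cells the medians were -0.05 to 0.04 at week 1 against week 0. At week 3 these medians were -0.06 to 0.06 against week 0 and -0.17 to 0.03 against week 1, with mast cells lowest in both. None of the markers in the 11 lists was called between weeks, and because the values are centred they do not show which markers lie near background. The part of these cells in the differences of GPX3, SOD2 and MT2A was not tested.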

How the data were processed

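RNA of 12 samples of rumen papillae was hybridised to Affymetrix bovine arrays. Per the submitters' processing notes, GCRMA, which corrects background and normalizes probe intensities, gave the deposited log2 values. Its version was not given. The base 2 is taken from GCRMA's usual output. In the deposited values every probe set had a median of 0 over the 12 arrays. No genome build goes with them, so no coordinates are given, and the arrays' number limits the precision.

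All 24016 probe sets other than 112 controls were fitted with limma 3.58.1 in R 4.3.3 (lmFit and eBayes, a mean per week, two-sided, Benjamini-Hochberg adjustment, calls at an adjusted p under 0.05). The cows were tested in a fit with week and cow. Arrays of one cow deviated together (correlation of deviations from weekly means of 0.303 to 0.690, against -0.435 to 0.0662 between cows at different weeks), so fits with the cow as a block were run beside. Symbols were updated by gene ID, found for 13263 of 13292 probe sets naming 1 gene. Listed genes used their probe set of largest SD. Each SE is from the fit without cow, except where the block is named, so it also holds differences between cows.

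The members and the 24 gene lists were chosen with earlier results of these data known. Named were the members, all measured genes of their 3 families, up to 3 genes of smallest p per other list and comparison, and the 5 genes of highest r with each member. The steps were also run on simulated data whose noise was independent between arrays, unlike that of the real arrays of one cow. Nothing is read from that run. Alternatives were another normalization, array weights, a filter on SD and arrays or cows left out.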

Additional observations from a re-analysis of the deposited data

Results flagged for a closer look

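In 3 of 42 groups of 4 arrays, formed by the 3 members and the 11 measured relatives at each week, 1 array stood far from the other 3, and chance alone gives about 1 in 20. MT2A on forage was at 0.66 in cow 2 against 0.20 to 0.21 in the other cows. MT2A in week 1 was at 0.28 in cow 4 against -0.04 to 0.01. GPX2 in week 3 was at -0.40 in cow 1 against -0.02 to 0.01.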

How the results depend on the processing

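The differences of GPX3, SOD2 and MT2A between weeks kept their sign in all 22 alternatives each, except GPX3 at week 3 against week 0, which turned in 2 of 22 and ran from -0.024 (without week 0 of cow 4) to 0.44 (without week 3 of cow 4) when 1 array or cow was left out. Of 198 such values 192 moved by less than the SD between cows. Some of the 198 could change neither sign nor size. The block, the filter on SD and the loss of an array from the week not compared leave a difference as it was. With array weights GPX3 was at -1.94 for week 1 against week 0 and 2.23 for week 3 against week 1, and SOD2 at 0.36 for week 3 against week 1. Without the 3 arrays of high hybridization controls GPX3 was at 0.51 and SOD2 at 0.40 for week 3 against week 0, and MT2A at -0.12 for week 1 against week 0. The counts of called probe sets moved more. With the cow as a block (replicate block) 2 were called for week 1 against week 0, and the block changed no member's difference. The other counts for that comparison were 9970 with array weights, 2 without the 40% of lowest SD and 5 without the 3 arrays, and 0 to 45 without 1 array or cow. For week 3 against week 0 they were 2 after quantile normalization, 7 with array weights, 6 without the 3 arrays and 0 to 2 without 1 array or cow, and for week 3 against week 1 they were 97, 12 and 0 to 38 with array weights, without the 3 arrays and without 1 array or cow. Both the 45 and the 38 came from the fit without week 1 of cow 1. Between cows 430 probe sets were called, or 259 with each array centred, 1089 with array weights, 734 without the 40% of lowest SD, 65 without the 3 arrays and 101 to 375 without 1 array or cow. Fewer samples or probe sets entered the fits that left some out, and the cause of the other shifts was not tested. The alternatives for the cow test of single genes were chosen after seeing the data. The mean over several probe sets of a gene was not run, as each member has 1.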

Other observations

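Of the 149 measured genes of antioxidant defence, metal handling and their regulators, 6 (4.03%) differed between cows by the limma F test at an adjusted p under 0.05, beside 252 of all 9155 named genes (2.75%), each taken at its probe set of largest SD as well. They were picked out after their values were seen. GSTA2, a glutathione transferase, averaged -2.34, 1.22, -0.38 and 0.07 over the 3 weeks of cows 1 to 4 (adjusted p = 0.00173), and GSTO1, another transferase, 1.16, -0.05, 0.21 and -0.37 (adjusted p = 0.00267). CYBA, the oxidase subunit, averaged 0.39, 0.33, -0.29 and -1.10 (adjusted p = 0.0190), and RAC2, a GTPase of the same oxidase, 0.45, 0.33, -0.43 and -0.69 (adjusted p = 0.0440), both with the cows in the same order as GPX3. SLC39A8, a zinc importer, averaged 1.61 in cow 2 and -0.63 in cow 4 (adjusted p = 0.0234), and HSD11B2, which inactivates cortisol, -1.23 in cow 2 and 0.68 in cow 4 (adjusted p = 0.0487).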
